A study of Homo sapiens with 6 samples.

Results

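miR-483 and miR-675 are the miRNAs of the imprinted IGF2-H19 domain at 11p15, and their 4 mature strands were followed here among 2588 miRNAs measured in A549 cells. The strands, listed as hsa-miR-483-3p, hsa-miR-483-5p, hsa-miR-675-5p and hsa-miR-675-3p, were taken by name from the deposited miRNA table, in which each had 1 row. The pair from miR-483 was selected on its difference between the 2 conditions, seen in earlier results of these libraries, and the pair from miR-675 belongs to the neighbouring imprinted gene. The difference of miR-483 between the conditions is therefore described here and supports nothing further. Of the 4 strands, 2 had at least 1 read, as had 1539 of all 2588 miRNAs.

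Small RNA was sequenced from A549, an established cell line from a human lung adenocarcinoma. The 3 Ctrl libraries came from parental cells and the 3 MIR21-KO libraries from cells in which the *MIR21* locus was deleted with Cas9 and a pair of guide RNAs. All were harvested 48 h after seeding. The study's methods describe its experiments in general as biological triplicates at the least and the knockouts as single-cell clones. Whether the 3 MIR21-KO libraries stem from 1 clone or several is not given in the sources used here, so a p-value measures only the spread between these libraries.

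IGF2 encodes a fetal growth factor that is expressed from the paternal allele in most tissues, whereas the non-coding RNA H19 is expressed from the maternal allele. A shared imprinting control region sets which of them is active on each chromosome. Both are strongly expressed before birth, fall silent in most adult tissues and can return in tumors. miR-483 is carried by IGF2. Its 3p strand is known to repress the pro-apoptotic gene BBC3, and its 5p strand has been described to bind IGF2 transcripts. miR-675 is carried by H19, and its 5p strand is known to repress RB1 and IGF1R.

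On GRCh38, GENCODE 29 places *MIR483* at chr11:2134134-2134209 on the minus strand. It lies within an intron of each of the 9 IGF2 transcripts that span it, and within an intron of the INS-IGF2 read-through transcript. *MIR675* lies at chr11:1996759-1996831 on the minus strand. There the hairpin falls inside an exon of 4 of the 5 H19 transcripts that span it and inside an intron of the other one. The 2 hairpins are 137 kb apart.

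RefSeq (GRCh38.p14) gave mature sequences for 2 of the 4 strands. Both miR-675 strands are shown with miR-4466 because miR-675-5p and miR-4466 share a seed, the stretch that pairs with targets. Capitals mark the seed, bases 2 to 8 from the 5′ end.
miR-675-5p: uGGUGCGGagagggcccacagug
miR-675-3p: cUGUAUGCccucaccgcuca
miR-4466: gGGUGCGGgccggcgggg
miR-675-5p comes from chr11:1996800-1996822, miR-675-3p from chr11:1996768-1996787 and miR-4466 from chr6:156779710-156779727, all on the minus strand. The mature strands differ in length, with 18 bases in miR-4466 and 23 in miR-675-5p. The RefSeq table held no other miRNA with the seed of miR-675-3p.

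The libraries held 6180032 to 9768152 miRNA reads in Ctrl against 5577287 to 8671618 in MIR21-KO. The deletion was visible in every library. miR-21-5p made up 65.5% to 69.4% of the reads in Ctrl against 0.0156% to 0.0254% in MIR21-KO. Hence the reads left for all other miRNAs were 7279738 in the Ctrl libraries together and 21488668 in the MIR21-KO libraries together, and levels are given here per 1000000 miRNA reads other than miR-21 unless stated otherwise. Detection of epithelial miRNAs cannot check the A549 label, as the liver, blood and mesenchymal markers given below were detected too. All 5 epithelial miRNAs (miR-200a-3p, miR-200b-3p, miR-200c-3p, miR-141-3p and miR-429) were detected. Their deposited values summed to 1374 to 2171 in Ctrl against 879 to 1269 in MIR21-KO. These sums did not overlap. Singly, 1 of the 5 had every MIR21-KO library below every Ctrl library, as had 6.59% of the 607 miRNAs tested. By limma, 0 of the 5 were called at an adjusted p under 0.05, with 4 log2 differences negative and 1 positive. The part of these miRNAs in the values given here was not tested. The first principal component of the tested miRNAs other than miR-21 and miR-483 held 72.2% of their variance. It placed MIR21-KO replicate 3 with Ctrl replicates 1 and 2, and Ctrl replicate 3 with the remaining MIR21-KO libraries. Most of this variance thus lies along a division of the libraries that splits each condition. What divides the libraries is not given in the labels. The study's methods state that small RNA libraries were prepared with a commercial kit or by a sequencing company. Which route each library took is not given there, and its part in the split was not tested.

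miR-483 was scarce in parental cells. miR-483-3p had 4 reads in Ctrl replicate 1, 9 in replicate 2 and 18 in replicate 3. Per 1000000 reads other than miR-21 this was 1.69, 4.63 and 6.07, with 95% Wilson intervals of 0.657 to 4.34, 2.43 to 8.79 and 3.84 to 9.59. Each interval comes from the count of 1 library and covers counting error only. Reads copied from 1 molecule cannot be told apart in these counts. The intervals of replicates 1 and 3 overlap. miR-483-5p had 8, 7 and 10 reads in the same libraries, or 3.38, 3.60 and 3.37 per 1000000. The 95% Wilson intervals of the 5p strand were 1.71 to 6.67, 1.74 to 7.43 and 1.83 to 6.21. Across the Ctrl libraries the 5p strand averaged 3.45 ± 0.129 (SD, n = 3) and the 3p strand 4.13 ± 2.23 (SD, n = 3). Counting error exceeds the SD of the 5p strand, so its small size is no sign of an even level. On the deposited scale the 5p strand had 2.14, 1.89 and 1.41. By mean deposited value in Ctrl, the strands stood at places 494 (3p) and 502 (5p) of 1244 miRNAs detected there.

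In MIR21-KO miR-483 was at or near 0 reads. miR-483-3p had 0, 1 and 0 reads in replicates 1 to 3, and miR-483-5p had 1, 1 and 0. A count of 0 allows up to 0.346 per 1000000 miRNA reads in replicate 1 and 0.538 in replicate 3, taking 3 reads as the limit. Every MIR21-KO library lay below every Ctrl library for both strands, as in 6.59% of the 607 miRNAs tested, and in 8.46% of the 130 with a mean deposited Ctrl value of 1 to 3. In raw reads, which are not adjusted for depth or for miR-21, the strands together had 12, 16 and 28 in Ctrl against 1, 2 and 0 in MIR21-KO. The shares above are for single miRNAs on deposited values. No such share was computed for raw reads, so these counts are a description only. In these bulk samples fewer cells with the miRNA and less of it per cell cannot be told apart, nor can the deletion and the cloning of cells.

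With the reads pooled over the libraries of each condition, 31 miR-483-3p reads in Ctrl stood against 1 in MIR21-KO, and 25 miR-483-5p reads against 2. Per read other than miR-21, the Ctrl level was 91.5 times that of MIR21-KO for the 3p strand (95% exact interval of the counts 15.3 to 3729) and 36.9 times for the 5p strand (9.20 to 321). For both strands together, 56 reads against 3, the ratio was 55.1 (17.9 to 275). The intervals of these ratios treat pooled reads as the units, so they cover counting error only and leave out the spread between libraries. The strands were also selected on this contrast, so no interval here is a bound on an effect of the deletion. The size of the ratio for both strands rests on the 3 reads in MIR21-KO. Without MIR21-KO replicate 2, which held 2 of them, it was 109.6, and without each of the other libraries it ran from 40.8 to 64.2. Counted per miRNA read including miR-21 it was 17.6 (5.72 to 87.8), as miR-21 takes up most of the Ctrl reads.

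On the deposited scale, miR-483-3p averaged 2.01 ± 0.820 (SD, n = 3) in Ctrl against 0.0240 ± 0.0416 (SD, n = 3) in MIR21-KO. miR-483-5p averaged 1.81 ± 0.369 (SD, n = 3) and 0.0481 ± 0.0416 (SD, n = 3). The differences fitted with limma on log2(value + 1) were -1.52 (standard error 0.32) for the 3p strand and -1.42 (standard error 0.28) for the 5p strand. At values this low the added 1 shrinks the difference strongly, so the ratio of reads describes the size better. Both strands passed the filter of a value of at least 1 in 3 libraries only through the 3 Ctrl libraries. At an adjusted p under 0.05, limma called 0 of the 2 strands, with 0.824% of 607 miRNAs called lower in MIR21-KO. On the recovered reads, edgeR called 2 of 2, with 1.15% of 607 called lower, and DESeq2 called 2 of 2, with 3.17% of 600 called lower and 0.667% called higher. As the same contrast put the strands forward, these counts are given without a reading.

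The values are also listed by the 2 sets of libraries that the first principal component divided. As every MIR21-KO library lay below every Ctrl library, the order within each set was fixed and tests nothing. The part of the sets in the difference was not tested. In the set with Ctrl replicates 1 and 2, the values of miR-483-3p were 1.07 and 2.43 in Ctrl against 0 in MIR21-KO replicate 3, and those of miR-483-5p were 2.14 and 1.89 against 0. In the other set, Ctrl replicate 3 had 2.54 for miR-483-3p, while MIR21-KO replicates 1 and 2 had 0 and 0.0721. For miR-483-5p the same libraries gave 1.41, 0.0720 and 0.0721. Each set holds a single library of one condition, so no test was made within them.

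Among miRNAs with as few Ctrl reads, the miR-483 strands had the fewest reads in MIR21-KO. In all, 107 miRNAs had 20 to 40 reads in the Ctrl libraries together, and in MIR21-KO they had 1 to 266 reads with a median of 65. The 2 with at most 2 reads were miR-483-3p and miR-483-5p. The next was miR-4485-5p, named after its values were seen, with 23 reads in Ctrl against 4 in MIR21-KO. Of 508 miRNAs with at least 4 reads in each Ctrl library, 0.394% had at most 1 read in each MIR21-KO library, and these were again miR-483-3p and miR-483-5p. The limits on reads were set with the values of miR-483 known, so this places the strands among the others and tests nothing.

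**Figure D1:**
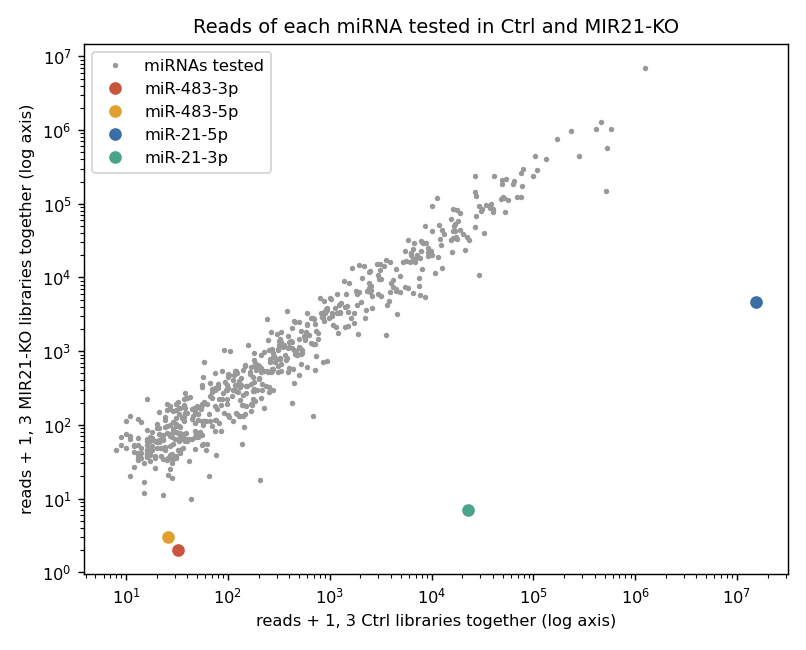
Reads of each of the 607 miRNAs tested, summed over the 3 Ctrl libraries (x axis) and the 3 MIR21-KO libraries (y axis), each plus 1 on log axes, with 1 point per miRNA. The miR-483 strands (31 against 1 and 25 against 2 reads) and the miR-21 strands lie below the band formed by the other miRNAs.

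Both strands of the miR-483 hairpin were sequenced in similar numbers in parental cells. miR-483-3p made up 33.3% of the 12 reads of both strands in Ctrl replicate 1 (95% exact interval 9.92% to 65.1%), 56.2% of 16 in replicate 2 (29.9% to 80.2%) and 64.3% of 28 in replicate 3 (44.1% to 81.4%). The mean share was 51.3% ± 16.1 (SD, n = 3), and the intervals of the 3 libraries overlap. No dominant strand was detectable at this depth. No MIR21-KO library reached the 10 reads set as the minimum for a share, so the share was not compared between the conditions under that minimum.

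miR-675 was not detected. Both strands had 0 reads in each of the 6 libraries, among 44313074 miRNA reads in all, which allows up to 0.0677 per 1000000 miRNA reads over all libraries and 0.307 to 0.538 in a single one. This limit lies below the level of miR-483 in each Ctrl library, where the strands together made up 1.75, 2.59 and 2.87 per 1000000 miRNA reads. With 0 reads throughout, miR-675 could not be compared between the conditions. miR-4466, with the seed of miR-675-5p, had 1 read, in MIR21-KO replicate 2.

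Within 2 Mb of *MIR483* on either side, RefSeq lists 9 miRNA genes, *MIR483* and *MIR675* included. The 7 others give 11 mature strands, of which 5 were detected and 1, miR-210-3p, was abundant enough to be tested. *MIR210*, known to be induced by hypoxia, lies 1566 kb from *MIR483*. miR-210-3p had 227, 211 and 1040 reads in Ctrl against 2104, 1632 and 413 in MIR21-KO, which overlap once scaled: its deposited values were 60.6, 57.0 and 147 in the Ctrl libraries and 152, 118 and 53.7 in the MIR21-KO libraries. Its log2 difference was 0.30 (standard error 0.60, limma adjusted p = 0.832). The other detected strands were scarce, with at most 16 reads in a library, as for miR-210-5p, which had 1, 0 and 2 reads in Ctrl against 13, 16 and 3 in MIR21-KO. miR-4687-3p had 1, 0 and 2 reads in Ctrl against 7, 8 and 1 in MIR21-KO. *MIR4686*, the nearest listed miRNA gene at 39 kb, had 0 reads in all libraries.

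**Figure D2:**
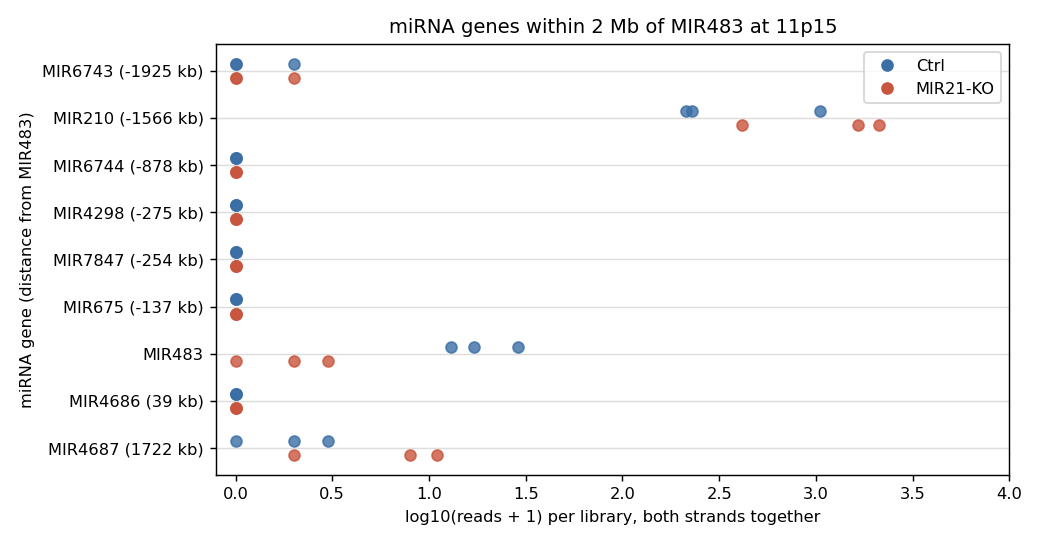
Reads per library of the 9 miRNA genes within 2 Mb of MIR483, both strands together, as log10(reads + 1), ordered by position and labelled with the distance in kb (blue, Ctrl; red, MIR21-KO; 1 point per library). MIR483 has 12 to 28 reads in the Ctrl libraries and 0 to 2 in the MIR21-KO libraries, whereas MIR210 and MIR4687 do not separate in that direction.

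Other imprinted loci that carry miRNAs were set beside miR-483, with 0 members called in either direction by limma in each. In the maternally expressed DLK1-DIO3 cluster at 14q32, 66 of 91 miRNAs were tested, with a median log2 difference of 0.46, against 0.24 for all 607 miRNAs tested. On the deposited scale, its most abundant member miR-381-3p averaged 6641 ± 497 (SD, n = 3) in Ctrl, compared with 6692 ± 1610 (SD, n = 3) in MIR21-KO. miR-127-3p had 3865 ± 930 (SD, n = 3) and 6076 ± 799 (SD, n = 3), and miR-379-5p 1486 ± 862 (SD, n = 3) and 1931 ± 1431 (SD, n = 3). In none of the 66 did every MIR21-KO library lie below every Ctrl library, against 6.59% of all 607 tested. With a limma term for the 2 sets of libraries, 12 of the 66 were called higher and 1 lower, against 71 and 39 of all 607. With scaling to the total of all miRNA reads, 23 were called higher and 0 lower, against 196 and 7 of all 607. The placental C19MC cluster at 19q13 was almost silent: 3 of its 56 listed miRNAs were detected (miR-516b-5p, miR-526b-5p and miR-519a-5p), with 2 reads in Ctrl against 3 in MIR21-KO in all. From the MEST and GNAS loci, 2 of 5 miRNAs were tested. miR-335-3p had a log2 difference of -0.87 (standard error 0.57) and miR-335-5p of 1.0 (standard error 0.76), and the groups overlapped for both strands. miR-296-3p, of the GNAS locus, had 1 read in Ctrl against 3 in MIR21-KO.

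miRNAs known to target IGF2 or its receptor IGF1R were a further list of 5, of which 4 were tested and 0 were called. Their median log2 difference was 0.11 and had no stable sign, running from -0.44 with a filter on a mean value of at least 10 to 1.38 with scaling to the total of all miRNA reads. The most abundant by deposited value were miR-100-5p, with 47043 ± 31249 (SD, n = 3) in Ctrl compared with 34575 ± 26631 (SD, n = 3) in MIR21-KO, and miR-7-5p, with 20665 ± 5191 (SD, n = 3) and 13373 ± 4340 (SD, n = 3). miR-125b-5p had 462 ± 282 (SD, n = 3) and 798 ± 410 (SD, n = 3). None of these 3 differences exceeded the spread between the libraries by the limma test, with adjusted p from 0.592 to 0.799.

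Markers of other tissues varied between the libraries. miR-122-5p, the abundant miRNA of liver, had deposited values of 96.7, 141 and 7.90 in Ctrl against 16.2, 8.58 and 51.9 in MIR21-KO. The 5 blood markers summed to 1.98 to 43.8 in Ctrl against 2.81 to 9.36 in MIR21-KO, nearly all of it miR-451a, with miR-142-3p, miR-144-3p, miR-150-5p and miR-223-3p at 0 to 4 reads per library. The groups overlapped for both lists. Ctrl replicate 2 had the highest deposited value of miR-122-5p, of miR-451a (41.6) and of the miR-483 strands together (4.32). Ctrl replicate 3 had the lowest deposited miR-122-5p and miR-451a (1.69) of the 6 libraries, with 3.95 for the miR-483 strands together. Scaled to reads other than miR-21, the miR-483 strands together were highest in Ctrl replicate 3, at 9.44 against 8.23 in replicate 2. The shared peak in Ctrl replicate 2 thus depended on the scale. The part of these markers in the miR-483 difference was not tested. The 2 mesenchymal markers, miR-143-3p and miR-145-5p, summed to 246 to 653 in Ctrl against 426 to 1230 in MIR21-KO.

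The patterns most like that of miR-483 were sought among the 332 miRNAs with a mean deposited value of at least 10, by Pearson's r of log2(value + 1) over the 6 libraries. The highest r were those of miR-21-5p (0.990) and miR-21-3p (0.986), followed by miR-215-5p (0.979), miR-486-5p (0.961) and miR-192-5p (0.956). All 5 had a lower mean in MIR21-KO, so r mostly reflects the 2 conditions, and the libraries share their scaling. Of these 5, limma called miR-192-5p lower besides the miR-21 strands (log2 difference -3.11, adjusted p = 0.0111).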

How the data were processed

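The members and lists were chosen with earlier results of these data known. The submitters' processing notes name cutadapt 1.14, Bowtie2 2.3.2, SAMtools 1.5, featureCounts 1.5.3, edgeR 3.18.1 and hg38, without roles. The authors deposited 1 signal value per mature miRNA and library, the reads divided by 1 factor per library, beside the statistics of their own comparison (log2 fold change, p-value and FDR), which were not used. Divided by what 1 read is worth in its library (0.0720 to 0.270), 100% of nonzero values came out whole (relative tolerance 1e-06), which gave the reads. The 2813 rows were summed by name, as 167 miRNAs had several rows. How reads that fit several loci were counted is not given in the sources used here, so sums and totals may count a read more than once.

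limma 3.58.1 (trend, R 4.3.3) was fitted on log2(value + 1) for 607 miRNAs that reached 1 in 3 or more libraries, with Benjamini-Hochberg adjustment and two-sided tests. edgeR 4.0.16 and DESeq2 1.42.0 were alternatives on the recovered reads. In data simulated with a dispersion of 0.3, the fit recovered 2.60% of 192 miRNAs given a log2 change of 1 and 45.6% of 182 given one of 2. With a dispersion of 0.02 it recovered 83.5% of 194 and 98.4% of 192. Replicates differed by 73.8 to 1437 chi-square per degree of freedom, so none was a duplicate. Named were the strands, the 5 patterns most like them, and in each list the called miRNAs or else the 3 most abundant. Python 3.11.15 was used.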

Additional observations from a re-analysis of the deposited data

How the results depend on the processing

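Both miR-483 strands, selected on their difference, kept it negative under all 18 alternatives (-6.24 to -0.23). The replicate block, a stricter adjusted p and dropping the filter cannot change it. Sign and calls thus test nothing. Neither strand was called with limma (adjusted p = 0.109 and 0.0750). Both were called with scaling to the total of all miRNA reads (-1.09 and -0.96, adjusted p = 0.0365 and 0.0290), with edgeR (-5.62 and -4.74, both adjusted p = 0.0492), with DESeq2 (-6.24 and -5.29, adjusted p = 8.93e-04 and 0.00156) and with library set as a covariate (-1.59 and -1.38, adjusted p = 0.00194 and 0.00285), and miR-483-3p alone with median centring (-1.81, adjusted p = 0.0441), so that 2 of the 7, 2 of 7, 2 of 19, 2 of 39 and 1 of the 9 miRNAs called lower were strands. With each library left out, 0 strands were called and the Ctrl strand share moved by less than its SD. A filter on a mean value of 10 left neither strand to test. With no minimum of reads, the 3p share was 25% in the MIR21-KO libraries with 1 and 2 reads (two-sided exact permutation test, p = 0.4, where 0.2 is the smallest possible). The ratio of pooled reads was 17.6 per read with miR-21, against 55.1 without, an alternative chosen after seeing the data.

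Of all miRNAs, 0 were called higher and 5 lower by limma, and 41 and 27 had an unadjusted p under 0.05. The counts were 3 lower with a pseudocount of 10, 3 higher and 2 lower with no filter, 196 higher and 7 lower with scaling to the total, 9 lower with median centring, 4 higher and 19 lower with DESeq2, 71 higher and 39 lower with that covariate, 2 lower at an adjusted p under 0.01, and 2 to 5 lower with each library left out (2 without Ctrl replicate 1 or MIR21-KO replicate 1 or 2, and 3 without Ctrl replicate 2 or MIR21-KO replicate 3). With the replicate block 2 were called lower and 0 strands. Same-numbered libraries deviated in opposite directions (r = -0.79, -0.60 and -0.88), so the numbers do not pair them. With no minimum, the strand share differed by -19.8 points on average over the 2 same-numbered pairs with reads. The cause of these differences between settings was not tested. Scaling to the total, which includes miR-21, moved the median of all miRNAs from 0.24 to 1.34 (-0.06 with median centring). It moved the median of DLK1-DIO3 from 0.46 to 1.71.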
